A study of Mus musculus with 10 samples.

Results

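The BCL2 family apoptosis regulators described here are 10 genes, Bcl2, Bcl2l1, Mcl1, Bak1, Bid, Bad, Bcl2l11, Bik, Bmf and Hrk, chosen by gene symbol and found as 10 of the 24470 gene entries of the count table. They were measured in cultured fetal mouse testes in which glycogen breakdown had been blocked. Male gonads of C57BL/6 embryos at E12.5 were placed in culture with the mesonephros, the neighbouring embryonic kidney, still attached. From each of 5 embryos, M1 to M5, 1 gonad received 75 µM of a small-molecule inhibitor of glycogen phosphorylase (GPI), and the other gonad received the solvent DMSO (vehicle), both for 48 h. The comparison asks how RNA levels change in the testis when glycogen cannot be broken down. The gonad was separated from the mesonephros after culture and its RNA was taken whole, so the RNA of all its cell types was mixed. The inhibitor was given to the whole gonad, and the cell types it acted in were not measured in these libraries. Testes grown outside the embryo lack circulation, and 1 dose and 1 time point were sampled. The labels name a separate animal for each pair of gonads. No protein or cell death was measured in these libraries.

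The vehicle libraries held 10203679 to 15590223 counts (median 11114376) and the GPI libraries 11025409 to 15635322 (median 11691690). Normalized counts below are counts divided by each library's effective size (its total multiplied by its TMM factor, edgeR's correction for library composition) and multiplied by the mean effective size of the 10 libraries. Differences between treatments are given on the log2 scale as GPI minus vehicle with the standard error (SE), from edgeR's quasi-likelihood test with the mouse in the design. A gene is called when its p-value, adjusted by Benjamini-Hochberg over all 13941 genes tested, is under 0.05.

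BCL2 family proteins meet at the outer membrane of mitochondria and decide whether it is opened, which releases cytochrome c and activates caspases. Anti-apoptotic members hold the effectors BAX and BAK in check, and BH3-only members tip the balance towards death by occupying the groove of the anti-apoptotic proteins or by engaging the effectors directly. In the fetal testis this balance is best known from germ cells, whose death or survival depends on BAX and on BCL2-like proteins.

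What all 10 members share is the BH3 motif, the short helix through which they bind each other. Its codons are shown to let the members be compared, because the name of the BH3-only group refers to this motif. The search took coding sequences of GENCODE M21 and looked for codons of leucine, any 3 residues, then glycine, alanine or serine, then aspartate. These letters were chosen to take in the known BH3 cores of the members, so that each of the 10 coding sequences holds them, 1 match in each, is no finding, and 31% of the principal coding sequences of 17337 genes hold them too. In the lines below, 5′ to 3′ on the coding strand, capitals mark the 6 codons of that core and lower case the 2 codons on either side.
Bcl2: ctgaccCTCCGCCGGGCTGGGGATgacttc
Bcl2l1: caagcgCTGAGAGAGGCAGGCGATgagttt
Mcl1: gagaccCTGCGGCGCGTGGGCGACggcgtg
Bak1: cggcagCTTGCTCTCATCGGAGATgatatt
Bid: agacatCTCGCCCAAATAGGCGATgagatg
Bad: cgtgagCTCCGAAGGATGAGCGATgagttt
Bcl2l11: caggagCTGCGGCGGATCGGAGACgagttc
Bik: ttgaggCTGGCCTGCATCGGCGATgagatg
Bmf: agaaagCTTCAGTGTATTGCAGACcagttc
Hrk: ctgcggCTGCAGGCGCTGGGCGACgagctg
Each stretch lies within 1 coding exon of GRCm38 (mm10). For the members that were called, the positions are chr5:118169885-118169914 (plus strand) in exon 1 of 2 for Hrk, chr1:106712578-106712607 (minus strand) in exon 1 of 2 for Bcl2, and chr17:27022534-27022563 (minus strand) in exon 4 of 6 for Bak1. The other positions are chr2:152829700-152829729 (minus strand) for Bcl2l1, chr3:95659430-95659459 (plus strand) for Mcl1, chr6:120897292-120897321 (minus strand) for Bid, chr19:6950786-6950815 (plus strand) for Bad, chr2:128147144-128147173 (plus strand) for Bcl2l11, chr15:83543078-83543107 (plus strand) for Bik and chr2:118545103-118545132 (minus strand) for Bmf. The fifth codon of the core encodes glycine in 8 of the 10 members. In Bad it is a serine codon and in Bmf an alanine codon. Any pair of members shares between 11 and 20 of the 30 bases, the codons fixed by the search included (median 15 over 45 pairs), with the most between Bad and Bcl2l11.

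All 10 members passed the filter on low counts and were tested. With GPI 1 of the 10 rose (Hrk), 2 fell (Bcl2 and Bak1), and 7 were not called. Among all genes tested, 22.9% were called, 11.1% as higher and 11.9% as lower, so that 3 of 10 members called is close to the share in the whole table. The libraries of the 2 treatments did not overlap for the same 3 members, against 16.1% of all genes tested. At an unadjusted p under 0.05, edgeR counted 4 of the 10 members and 4742 of the 13941 genes. The median log2 difference was -0.18 over the members and 0.02 over all genes. The plot of normalized counts by embryo shows the members one by one.

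**Figure D1:**
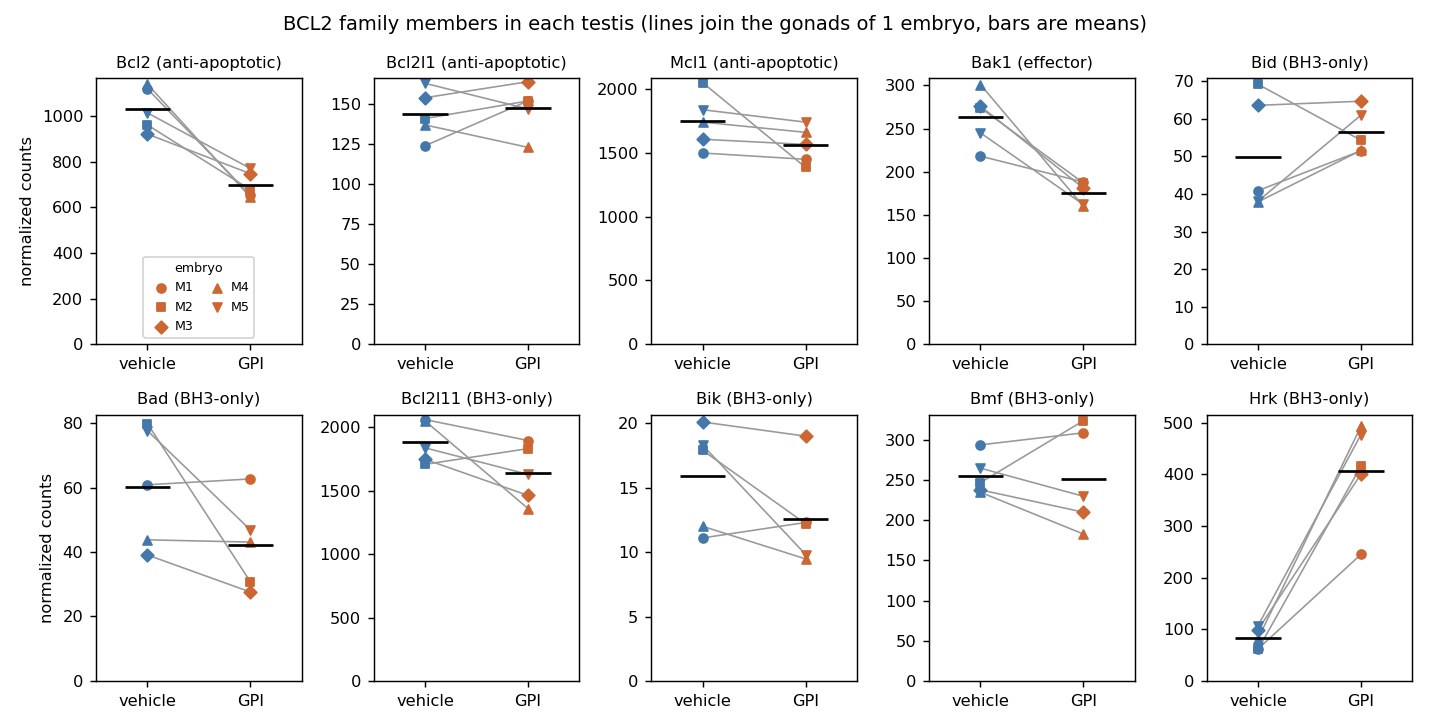
Normalized counts (vertical axes, each starting at 0) of the 10 BCL2 family members in testes cultured with vehicle (blue) or GPI (orange). Symbols mark the 5 embryos, lines join the gonads of 1 embryo and black bars are means. The groups are separate for Hrk (60.9 to 107 with vehicle, 245 to 493 with GPI), Bcl2 and Bak1, and overlap for the other 7.

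Hrk, which encodes harakiri, a BH3-only protein that binds BCL2 and BCL-XL, stood out among the members in the size of its change. Its normalized counts in mice M1 to M5 were 62, 60.9, 99.4, 81.7 and 107 with vehicle. In the GPI gonads of the same mice they were 245, 416, 400.4, 493 and 477. Every GPI library lay above every vehicle library, and the lowest of the GPI values came from mouse M1, whose vehicle value was also among the lowest. Hrk rose from 82.1 ± 21 to 406 ± 98.2 normalized counts (mean ± SD, n = 5), a 4.92-fold increase. The log2 difference was 2.30 (SE 0.15), with an adjusted p of 1.33e-07 in edgeR's quasi-likelihood test (Benjamini-Hochberg adjustment), and it was higher in 5 of 5 mice. Within a mouse the log2 ratio ran from 1.95 in M1 to 2.73 in M2. Of all genes tested, 97.9% changed by no more than Hrk in absolute size. The gene (Entrez 12123) lies on the plus strand of mm10 at chr5:118169764-118189478.

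Among the anti-apoptotic members, Bcl2, the founding gene of the family, fell. It had 1120, 962, 922, 1141 and 1015 normalized counts in the vehicle gonads of M1 to M5. With GPI it had 654, 678, 748, 645 and 771. The highest GPI library, from M5, lay under the lowest vehicle library, from M3, so the groups did not overlap. The mean went from 1032 ± 96 to 699 ± 56.8 (SD, n = 5), or 0.678 of the vehicle level. In edgeR's quasi-likelihood test the log2 difference was -0.56 (SE 0.09), with a Benjamini-Hochberg adjusted p of 0.000629 and a lower value in 5 of 5 mice. The within-mouse log2 ratios were -0.78, -0.5, -0.3, -0.82 and -0.4, the shallowest in M3. Bcl2 (Entrez 12043) spans chr1:106538176-106714290 on the minus strand, and a microRNA entry on the same strand inside it, Mir3473f, had at most 3 counts in a library.

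Mcl1, a short-lived anti-apoptotic protein that restrains BAK, was not called. The vehicle gonads of M1 to M5 held 1497, 2048, 1605, 1739 and 1836 normalized counts. The GPI gonads held 1448, 1384, 1564, 1659 and 1739. The GPI gonad lay below the vehicle gonad in 5 of 5 mice, by a wide margin in M2 and a narrow one in the others, and the groups overlapped. The log2 difference was -0.16 (SE 0.09) with an adjusted p of 0.223 in edgeR's quasi-likelihood test (Benjamini-Hochberg adjustment), and without mouse M2 it was -0.06 (adjusted p of 0.602). Bcl2l1, which encodes BCL-XL, ranged from 124 to 163 normalized counts with vehicle and from 123 to 164 with GPI. Its log2 difference was 0.04 (SE 0.14, Benjamini-Hochberg adjusted p of 0.892 in edgeR's test), a sign that turned to -0.02 with scaling by total counts and to -0.04 without mouse M1. A p that misses the threshold does not show that the levels were equal.

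Bak1, the member that encodes the pore-forming effector BAK, fell by about as much as Bcl2. Its normalized counts in M1 to M5 were 218, 274, 276, 301 and 245 with vehicle. They were 188, 187, 181, 160 and 162 with GPI. The highest GPI value, in M1, was below the lowest vehicle value, which came from the same mouse, so M1 showed the smallest difference. Means were 263 ± 32 and 176 ± 13.6 (SD, n = 5), a fold of 0.67. The log2 difference was -0.58 (SE 0.13), the adjusted p 0.00466 by edgeR's quasi-likelihood test (Benjamini-Hochberg adjustment), and 5 of 5 mice were lower. Bak1 (Entrez 12018) lies at chr17:27019812-27028626 on the minus strand. Because strand was ignored in counting, reads of Bak1 and of Ggnbp1 on the opposite strand cannot be told apart where the genes overlap, nor those of Bcl2l1 and Cox4i2 or of Bad and Gpr137. Ggnbp1 had 14 to 42 counts in a library.

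**Figure D2:**
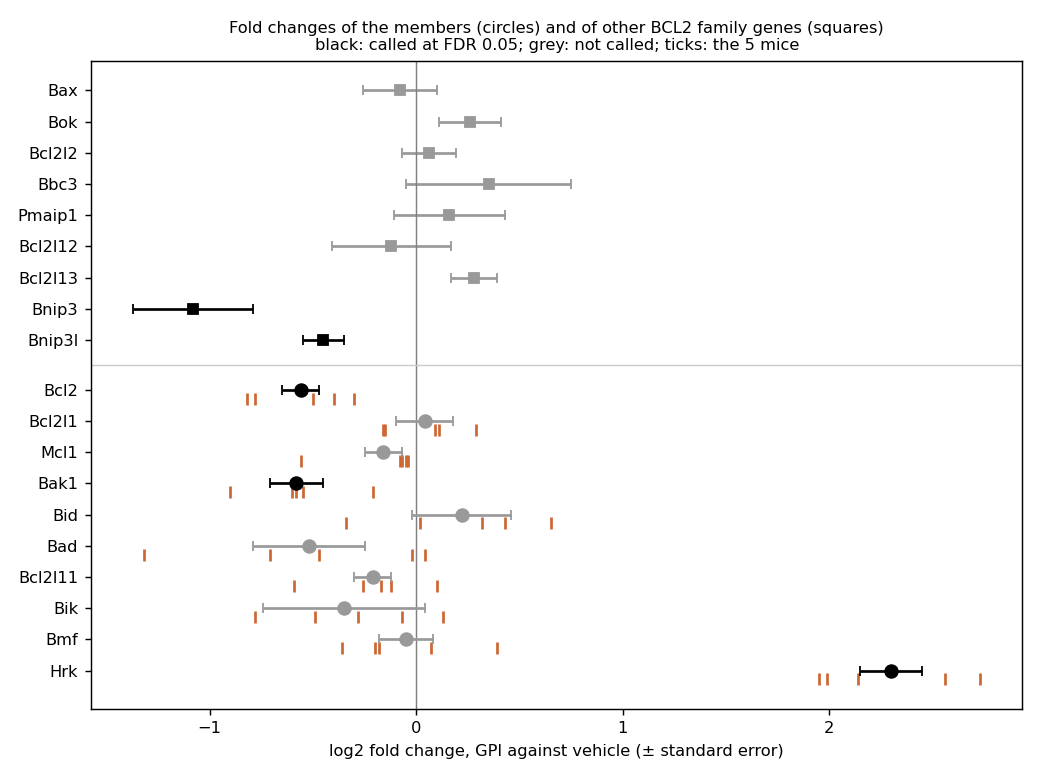
Log2 fold change of GPI against vehicle (horizontal axis, bars are ± 1 standard error) for the 10 members (circles) and the 9 other BCL2 family genes that were tested (squares). Black marks genes called at an FDR of 0.05, grey those not called, and orange ticks below the members are the log2 ratios of the 5 mice. Hrk lies at 2.30, while Bcl2 (-0.56) and Bak1 (-0.58) lie to the left of 0.

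The BH3-only members other than Hrk were not called. Bcl2l11, which encodes BIM, a potent activator of cell death downstream of FOXO factors and stress kinases, had 2061, 1708, 1748, 2051 and 1838 normalized counts in the vehicle gonads of M1 to M5. The GPI gonads had 1896, 1832, 1463, 1359.6 and 1629. The GPI value was the lower of the pair in 4 of 5 mice, with M2 the exception, and the groups overlapped. Its log2 difference was -0.21 (SE 0.09), with an unadjusted p of 0.0391 and an adjusted p of 0.123 in edgeR's quasi-likelihood test (Benjamini-Hochberg adjustment). Without mouse M2 it was called, at -0.29 and an adjusted p of 0.0389, and without M4 it was at -0.11, against adjusted p-values of up to 0.465 over all the alternatives.

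Bmf, whose product is held at the cytoskeleton until it is released, ranged from 235 to 294 normalized counts with vehicle and from 183 to 324 with GPI (log2 difference -0.05, SE 0.13, turning to 0.02 without mouse M4). Bid, which caspase-8 cleaves to link death receptors to mitochondria, ranged from 37.9 to 69.2 and from 51.5 to 64.7 (0.22, SE 0.24). Bad, which survival kinases hold inactive by phosphorylation, ranged from 39.1 to 79.9 and from 27.6 to 62.7 (-0.52, SE 0.27). These 3 genes and Bik overlapped between treatments. With 1 mouse left out, the log2 difference of Bad ran from -0.68 (without M1) to -0.3 (without M2). That of Bid ran from 0.1 (without M5) to 0.37 (without M2). Bik, a BH3-only protein of the endoplasmic reticulum, was the least counted member, at 11.1 to 20.1 normalized counts with vehicle and 9.5 to 19 with GPI (-0.35, SE 0.39, and -0.21 without mouse M5). The adjusted p-values of Bmf, Bid, Bad and Bik in edgeR's quasi-likelihood test (Benjamini-Hochberg adjustment) were 0.821, 0.579, 0.194 and 0.592.

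Levels of different genes were compared as normalized counts per kilobase of transcript, which depend on the transcript models used for length. With vehicle the order of the means was Mcl1 (511), Bcl2l11 (273), Bcl2 (113), Bak1 (110.1), Bcl2l1 (53.3), Bmf (53), Bad (38.3), Bid (22.8), Bik (16.8) and Hrk (15.3). Mcl1 and Bcl2l11 together held 65% of this sum. Neighbours whose libraries did not overlap were Mcl1 and Bcl2l11, Bcl2l11 and Bcl2, and Bak1 and Bcl2l1, and the other neighbours in the order did not differ beyond their spread. Among all genes tested that had a length, the vehicle level of Mcl1 stood at percentile 90.7 and that of Hrk at 15.2.

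With GPI, Hrk moved from the last place in this order to the fourth, at 75.5 ± 18.2 normalized counts per kilobase (SD, n = 5). It then lay between Bcl2 at 76.3 ± 6.2 and Bak1 at 73.6 ± 5.69, and the libraries of these 3 genes overlapped. Mcl1 (456) and Bcl2l11 (237) kept the first places. Bcl2l1 (54.7), Bmf (52), Bad (26.8), Bid (25.9) and Bik (13.3) followed, with no overlap between Bak1 and Bcl2l1 or between Bid and Bik and overlap between the other neighbours among them.

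**Figure D3:**
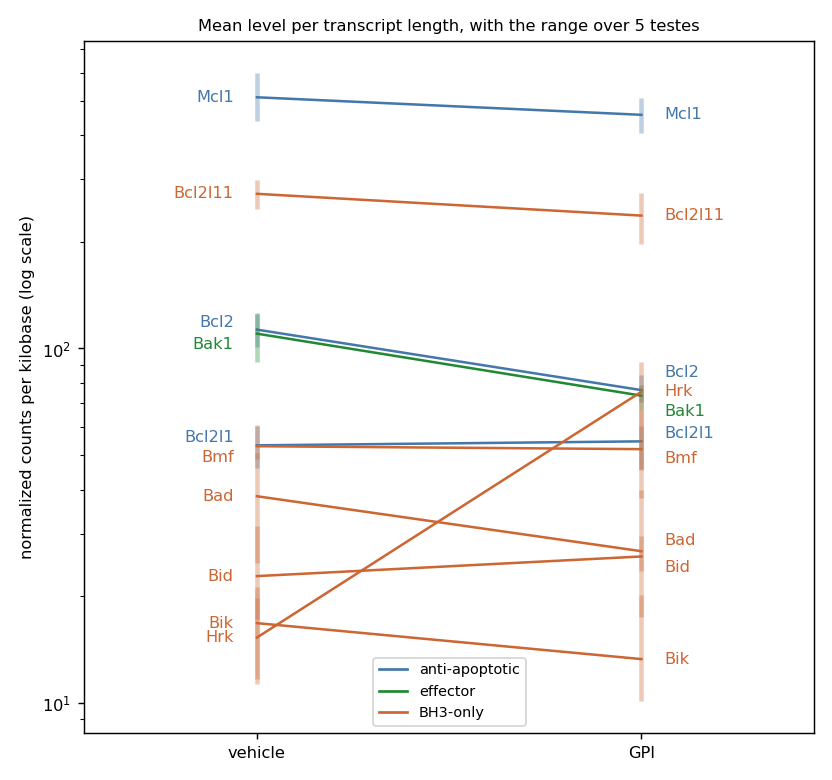
Mean normalized counts per kilobase of transcript (vertical axis, log scale) of the 10 members with vehicle and with GPI. Lines join the means of a gene and pale bars span the lowest to the highest of 5 testes. Hrk crosses Bik, Bid, Bad, Bmf, Bcl2l1 and Bak1, from 15.3 to 75.5, while Bcl2 and Bak1 come down side by side to 76.3 and 73.6.

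The make-up of the BH3-only RNA shifted while its sum did not separate the treatments. Summed over the 6 BH3-only members, the level per kilobase was 440.4, 411, 396, 419 and 427 in the vehicle gonads of M1 to M5. It was 461, 467, 397, 388 and 441 in the GPI gonads. These sums overlapped, with the GPI gonads of M3 and M4 among the lowest and those of M1 and M2 the highest. Hrk made up 3.66% ± 0.984 of the sum with vehicle and 17.8% ± 5.11 with GPI (SD, n = 5), and Bcl2l11 made up 65.1% ± 4.33 and 54.9% ± 3.42. The lowest Hrk share with GPI, 9.88% in M1, was above the highest with vehicle, 4.66% in M3. Such ratios are descriptions of the same counts and were given no test.

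Set against the genes of its known partners, Hrk per kilobase divided by the sum of Bcl2 and Bcl2l1 per kilobase was 0.0684, 0.0719, 0.117, 0.0865 and 0.116 with vehicle in M1 to M5. With GPI it was 0.356, 0.592, 0.523, 0.788 and 0.64. All GPI ratios were higher than all vehicle ratios, with M1 the lowest of them and M4 the highest. This separation follows from the rise of Hrk and the fall of Bcl2 given above and is not a separate result. Bcl2l11 over Bcl2 per kilobase went from 2.42 ± 0.0616 to 3.13 ± 0.554 (SD, n = 5), with a lowest GPI ratio of 2.6 against a highest vehicle ratio of 2.52. Bcl2l11 itself did not rise (-0.21, not called), and the ratio went up because Bcl2 fell more (-0.56). Other ratios to Bcl2 went up as well. Mcl1 over Bcl2 went from 4.58 ± 0.804 to 5.99 ± 0.555, with overlap, and Bcl2l1 over Bcl2 from 0.479 ± 0.0837 to 0.718 ± 0.0665, without overlap. The sum of the BH3-only members over that of the anti-apoptotic members was 0.624 ± 0.0661 and 0.739 ± 0.106, and there the groups overlapped. Of the anti-apoptotic sum per kilobase, Mcl1 held 75.3% ± 2.55 with vehicle and 77.6% ± 2.05 with GPI.

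**Figure D4:**
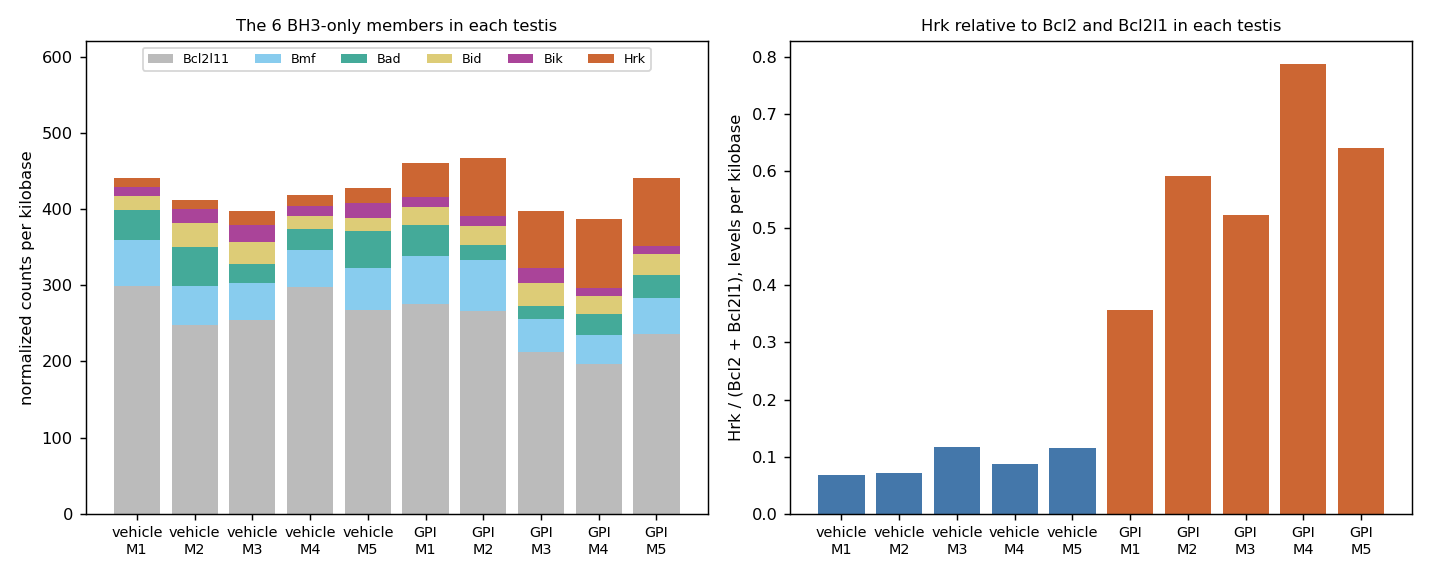
Left, normalized counts per kilobase (vertical axis) of the 6 BH3-only members stacked for each of the 10 testes. Right, the ratio of Hrk to the sum of Bcl2 and Bcl2l1, all per kilobase, for the same testes (blue vehicle, orange GPI). The height of the stacks overlaps between treatments, whereas the Hrk part and the ratio (0.0684 to 0.117 with vehicle, 0.356 to 0.788 with GPI) do not. The ratio restates the counts of Hrk, Bcl2 and Bcl2l1.

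The upstream sequences of the called members are shown because they moved in different directions. RefSeq's promoter table (GRCm38.p6) held 15 transcription starts of 9 of the 10 members, Bik being the missing entry. The lines below give the 250 bases before the start of Hrk at chr5:118169514-118169763 (plus strand), of Bcl2 at chr1:106714291-106714540 (minus strand) and of Bak1 at chr17:27028628-27028877 (minus strand), 5′ to 3′ on the gene's strand. Capitals mark the GC box, a motif bound by SP1-like factors.
Hrk: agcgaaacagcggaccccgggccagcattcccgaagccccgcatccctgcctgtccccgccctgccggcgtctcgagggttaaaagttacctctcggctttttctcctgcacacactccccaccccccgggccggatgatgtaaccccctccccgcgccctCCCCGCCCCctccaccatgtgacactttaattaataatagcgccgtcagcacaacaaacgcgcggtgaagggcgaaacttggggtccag
Bcl2: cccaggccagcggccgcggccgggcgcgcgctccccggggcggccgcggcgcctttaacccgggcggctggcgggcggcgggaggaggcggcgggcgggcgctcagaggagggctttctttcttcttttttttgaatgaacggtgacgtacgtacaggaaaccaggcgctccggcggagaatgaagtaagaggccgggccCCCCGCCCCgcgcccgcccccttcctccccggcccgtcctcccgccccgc
Bak1: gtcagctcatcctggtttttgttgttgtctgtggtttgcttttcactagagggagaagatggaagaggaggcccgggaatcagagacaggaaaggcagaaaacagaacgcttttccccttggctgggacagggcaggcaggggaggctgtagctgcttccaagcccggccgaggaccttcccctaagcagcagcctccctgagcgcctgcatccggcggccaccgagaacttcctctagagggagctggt
The GC box was searched as GGGGCGGGG on both strands. It was found before 4 of the 15 member starts (those of Hrk, Bcl2 and Bid and 1 of Bcl2l11) and in 10.4% of all 32851 promoters over the same length. The motif was thus present before a member that rose and a member that fell, and absent before Bak1. When the 50 bases after the start were searched too, the count was 6 of 15 against 11.4%, with Bad and Bmf added, and the shorter window was chosen after that result was known. The other motifs searched were FOXO (GTAAACA), found at 1 start of Bcl2l11 and in 3.17% of all promoters, and the NR5A1 motif (CAAGGTCA), found at 1 start of Bcl2l1 and in 1.33%. AP-1 (TGANTCA), CRE (TGACGTCA) and the E-box (CACGTG) were found before 0 of the 15 starts and in 6.75%, 1.55% and 6.02% of all promoters. G and C made up 63.2% of the Hrk sequence, 74.8% of that of Bcl2 and 58.4% of that of Bak1, against a median of 52.4% over all promoters. A match is a string of letters, not evidence of binding, and the motifs were picked with the results known.

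Of 15 other BCL2 family genes in the table, 9 were tested, of which 2 fell and 0 rose by edgeR's quasi-likelihood test (Benjamini-Hochberg adjustment). At an unadjusted p under 0.05, 1 was higher and 2 were lower, and DESeq2 called 0 higher and 1 lower. Their median log2 difference was 0.06. Bnip3l, a mitophagy receptor with a BH3-like stretch, had 2666, 2799, 2429, 2563 and 2198 normalized counts with vehicle in M1 to M5. With GPI it had 2668, 1719.7, 1584, 1671 and 1753. The M1 gonads were level, while in the other 4 mice the GPI gonad was below all vehicle libraries. The log2 difference of Bnip3l was -0.45 (SE 0.1), with an adjusted p of 0.00363.

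Bnip3, its hypoxia-induced relative, had 1157, 989, 775, 742 and 889 normalized counts with vehicle. With GPI it had 1974, 429.7, 191, 273 and 299. Mouse M1 went against the other 4, its GPI library being the highest of all 10. The log2 difference was -1.08 (SE 0.29) with an adjusted p of 0.0153 by edgeR's test with Benjamini-Hochberg adjustment. The call rested on the design and on the mice. With treatment alone in the design (no replicate block) the value was -0.53 (adjusted p of 0.487), and DESeq2 gave -1.14 (0.0514). Leaving out M2, M3, M4 or M5 gave -1.04 (adjusted p of 0.0679), -0.88 (0.0734), -0.99 (0.0648) and -0.95 (0.072), whereas leaving out M1 gave -1.57 (5.88e-07). Adjusted p-values thus ran from 5.88e-07 to 0.487 over the 12 alternatives.

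The second pore-forming effector, Bax, had 89.1 to 131 normalized counts with vehicle and 86.8 to 105 with GPI (log2 difference -0.08, SE 0.18). Bax, Bbc3 (PUMA) and Pmaip1 (NOXA) are targets of p53. Bbc3 (0.35, SE 0.4) and Pmaip1 (0.16, SE 0.27) were not called either, nor was Trp53 itself (-0.26, SE 0.12, edgeR's Benjamini-Hochberg adjusted p of 0.13). Bbc3 had only 6 to 27 counts in a library, and whether p53 acted in these gonads was not tested. Bok, an effector that can act without BAX and BAK, stood at 0.26 (SE 0.15), the anti-apoptotic Bcl2l2 at 0.06 (SE 0.13), Bcl2l12 at -0.12 (SE 0.29) and Bcl2l13, a mitochondrial protein, at 0.28 (SE 0.11), and none of these 4 was called. The sign of Bax, Bcl2l2 and Pmaip1 turned when 1 mouse was left out. Bbc3 then ran from 0.18 (without M1) to 0.52 (without M5) and Bok from 0.16 (without M2) to 0.39 (without M1). Bcl2l12 ran from -0.19 (without M5) to -0.07 (without M4). Bcl2l10, Bcl2a1a, Bcl2a1b, Bcl2a1d, Bcl2l14 and Bcl2l15 were set aside by the filter on low counts and were not called when it was left out, the A1 genes are near-identical copies among which reads may be split, and none of the 6 exceeded 22.7 normalized counts in a library.

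Downstream of the mitochondria, 17 of 18 genes of the apoptosome, caspases and their inhibitors were tested, of which 1 rose and 2 fell (median log2 difference -0.04). Birc2, an inhibitor of apoptosis that acts as a ubiquitin ligase, rose from 1782 ± 178 to 2669 ± 414 normalized counts (0.57, SE 0.08). Its adjusted p was 0.000221 by edgeR's quasi-likelihood test (Benjamini-Hochberg adjustment), and it was higher in 5 of 5 mice. Cycs, which encodes cytochrome c, stood at 0.30 (SE 0.14) and was not called.

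In the death receptor branch, which reaches the family through Bid, 8 of 11 genes were tested and 0 were called by edgeR's quasi-likelihood test (Benjamini-Hochberg adjustment), with 1 at an unadjusted p under 0.05 and 0 called by DESeq2. The median was 0.06. The genes with the smallest p were Casp8 (-0.25, SE 0.1), Tnfrsf10b (0.26, SE 0.19), Fadd (0.15, SE 0.13) and Tnfrsf1a (0.12, SE 0.12). Tnfsf10, which encodes the ligand TRAIL, was at 0 in all GPI libraries and averaged 5.3 normalized counts with vehicle, and the filter on low counts set it aside.

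Outer membrane channels and fission genes, 9 of 9 tested, included 1 that rose and 0 that fell by edgeR's test, with 2 higher and 0 lower at an unadjusted p under 0.05 and 1 and 0 by DESeq2 (median 0.08). Vdac3, a channel of the outer membrane, rose from 873 ± 94.4 to 1324 ± 191 normalized counts, a log2 difference of 0.59 (SE 0.08, edgeR's Benjamini-Hochberg adjusted p of 6.19e-05), in 5 of 5 mice. Mff (0.19, SE 0.08), Opa1 (0.15, SE 0.08) and Mfn2 (-0.19, SE 0.11) were not called.

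All 21 genes of kinases, adaptors, dynein light chains, ubiquitin ligases and a deubiquitinase that act on family proteins were tested, and 1 rose and 5 fell (median -0.06). Fbxw7, which marks MCL1 for degradation, rose from 976 ± 71.6 to 1419 ± 182 normalized counts (0.53, SE 0.1). Ywhaz, an adaptor that can hold phosphorylated BAD, fell from 5743 ± 196 to 4703 ± 133 (-0.29, SE 0.06), and Rps6ka1, a kinase of BAD, from 102 ± 9.65 to 59.6 ± 6.46 (-0.78, SE 0.18). The adjusted p-values of these 3 genes were 0.00114, 0.00333 and 0.0067 by edgeR's quasi-likelihood test (Benjamini-Hochberg adjustment). Each moved the same way in 5 of 5 mice, and Pim1 and Ywhab fell too.

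Of 15 transcription factors known to act on family genes, 13 were tested, of which 3 rose and 1 fell by edgeR's test (median 0.21), while DESeq2 called 2 higher and 1 lower. Atf4, the stress-response factor, rose from 1325 ± 106 to 1907 ± 188 normalized counts (0.52, SE 0.08), and Foxo3 rose from 1184 ± 108 to 1413 ± 123 (0.25, SE 0.08). Stat3 fell from 1003 ± 73.1 to 683 ± 114 (-0.57, SE 0.09). Mitf rose from 93.3 ± 19.9 to 133 ± 13.3 (0.52, SE 0.18). The adjusted p-values of Atf4, Foxo3, Stat3 and Mitf were 0.000441, 0.0428, 0.000449 and 0.0463 by edgeR's quasi-likelihood test (Benjamini-Hochberg adjustment). Whether any of these factors bore on the members was not tested. Over the 6 lists together, 77 of 89 genes were tested and 16 called, 6 higher and 10 lower, a share close to the 22.9% called among all genes tested. DESeq2 called 14 of them.

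Many cell type markers differed between treatments too, in both directions. In RNA from whole gonads, fewer cells of a type and less RNA per cell cannot be told apart. Markers of both sexes were set beside the label testis first. The summed normalized counts of 10 Sertoli cell markers, the supporting cells of the testis cords, were 5118, 8242, 6204, 7224 and 7679 with vehicle in M1 to M5 and 6989, 10286, 10476, 12672 and 10635 with GPI. Of these 8 rose and 0 fell in edgeR's test (0 lower at an unadjusted p under 0.05 and 0 by DESeq2), Gata4 was the most abundant (2349.9 ± 470.4 and 3358 ± 218), and Sox8 (1.43, SE 0.16) and Sox9 (0.59, SE 0.09) were called with the smallest p. Amh averaged 128 ± 52.4 and 138 ± 54.4 normalized counts. Of the 6 pre-granulosa markers of the fetal ovary, 5 were tested, and Foxl2 averaged 30.6 ± 16.5 and 20.3 ± 7.52. Their sum was 1790, 1867, 1826, 1590 and 1523 with vehicle and 1490, 1255, 1305, 986 and 1394 with GPI. Wnt4, the most abundant (1044 ± 171 and 612 ± 132), fell (-0.78, SE 0.11), whereas Bmp2 rose (0.61, SE 0.15). Within each mouse the Sertoli sum was higher with GPI. Sums of different genes do not test the label.

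Fetal Leydig cell markers, the steroid-producing cells, summed to 4378, 6006, 7683, 4766 and 8471 with vehicle and 13928, 13942, 20069, 22309 and 17081 with GPI. Of 8 listed, 7 were tested, 6 rose and 0 fell (0 lower at an unadjusted p under 0.05 and 0 by DESeq2), with Hsd3b1 the most abundant over the 10 libraries together (1718 ± 892 and 5276 ± 1286), although Gpc3 was above it with vehicle (2586) and Cyp11a1 with GPI (5869), and Cyp17a1 (3.9, SE 0.29) and Fdx1 (1.41, SE 0.13) those with the smallest p. The treatments did not overlap in this sum. Interstitial markers summed to 14261, 17266, 16652, 14339 and 15904 with vehicle and 15759, 16759, 15582, 14343 and 17568 with GPI, with overlap, and Pdgfra, the most abundant, rose (0.33, SE 0.07), while Tcf21 (-0.3, SE 0.08) and 1 other of the 7 fell.

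Germ cell markers summed to 1826, 3093, 2206, 3012 and 1594 with vehicle and 934, 738, 778, 971 and 940 with GPI. Of 12 listed, 8 were tested, 6 fell and 0 rose (0 higher at an unadjusted p under 0.05 and 0 by DESeq2). Those with the smallest p were Dppa3 (-5.2, SE 0.36) and Dazl (-4.62, SE 0.34). Kit, the most abundant at 857 ± 114 and 771 ± 118, is also made in somatic cells of the gonad and was not called. It held 50.6% of the summed counts over the 10 libraries, and most of them with GPI. The sums therefore fell less steeply than each of the 6 called markers. Pou5f1 was near 0 with GPI, at 0.61 normalized counts on average against 17.5. Every germ cell sum with GPI was under every sum with vehicle.

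Endothelial markers, 10 of 10 tested and all lower, summed to 7935, 8285, 7645, 8788 and 7909 with vehicle and 908, 1074, 729, 590 and 766 with GPI. Cdh5 was the most abundant with vehicle (2827 ± 221 and 232 ± 63.3, log2 difference -3.63, SE 0.12), Kdr was above it with GPI (282), and Flt1 differed by -5.18 (SE 0.18). The 10 macrophage and leukocyte markers, of which 9 fell, summed to 1215, 714, 836, 809 and 1008 and 500, 400, 398, 175 and 232. In both lists the treatments did not overlap and 0 genes rose (0 higher at an unadjusted p under 0.05 and 0 by DESeq2). Over the 10 libraries together Cd68 was the most abundant of the leukocyte markers (146 ± 27.1 and 90.3 ± 36.2), although Ptprc and Itgam were above it with vehicle, and Csf1r (-2.22, SE 0.21) and Ptprc (-1.85, SE 0.26) had the smallest p.

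Blood cell markers were lower as well. The sums of the 11 erythroid markers were 2133, 2933, 5452, 5131 and 4315 with vehicle and 1875, 1032, 963, 1085 and 2510 with GPI, with 9 of 10 tested lower, Hbb-y the most abundant (-0.98, SE 0.23) and Hbb-bt at -3.84 (SE 0.31). Neutrophil markers, of which 3 of 7 were tested and fell, summed to 504, 722, 923, 208 and 1491 and 4, 139, 29, 0 and 25. Those with the smallest p were S100a9 (-4.42, SE 0.39) and S100a8 (-5.01, SE 0.52). Ly6g and Elane were at 0 in all GPI libraries, but averaged only 0.443 and 2.15 normalized counts with vehicle. The erythroid sums overlapped between treatments and the neutrophil sums did not. Megakaryocyte markers, of which 2 of 6 were tested, summed to 41, 105, 23, 150 and 53 and 24, 15, 15, 28 and 27, and Pf4, the most abundant with vehicle, fell (-2.66, SE 0.49) while Itga2b was not called (0.17, SE 0.57). Mesonephros markers, of which 3 of 6 were tested and 2 fell, summed to 1621, 1414, 1594, 1454 and 1165 and 891, 1166, 816, 783 and 1068, led by Emx2 (-0.73, SE 0.13), which the gonad also makes, and Hoxd10 (-0.38, SE 0.12). The megakaryocyte and mesonephros sums overlapped between treatments too. In these 4 lists 0 markers rose (0 higher at an unadjusted p under 0.05 and 0 by DESeq2). None of the listed markers was at 0 in all 10 libraries. The part of these cell types in the differences of Hrk, Bcl2 and Bak1 was not tested.

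**Figure D5:**
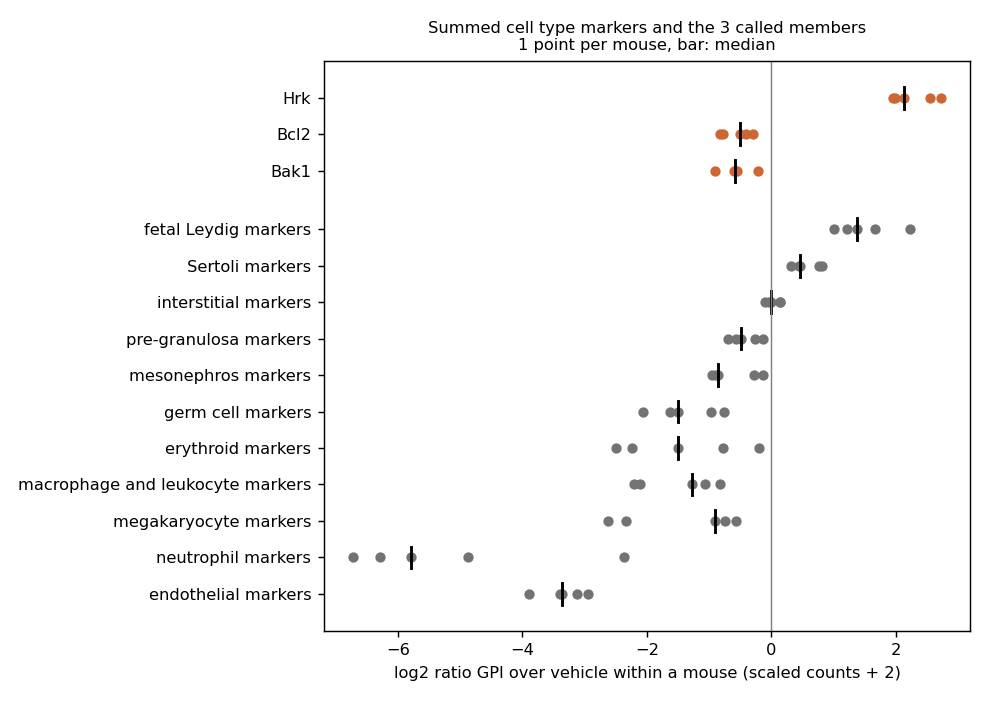
Log2 ratio of GPI over vehicle within each of 5 mice (horizontal axis, scaled counts plus 2) for the summed markers of 11 cell types (grey) and for Bak1, Bcl2 and Hrk (orange). Each point is 1 mouse and the black bar is the median. Endothelial sums lie at -3.89 to -2.95 and fetal Leydig sums at 1.01 to 2.23, next to -0.82 to -0.3 for Bcl2, -0.9 to -0.21 for Bak1 and 1.95 to 2.73 for Hrk.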

How the data were processed

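RNA of 10 cultured testes was amplified with Tecan's Ovation RNA-Seq System V2 and sequenced in pairs of reads. The authors aligned read pairs to mm10 with STAR 2.5 and deposited raw counts per gene from featureCounts (Subread 1.5.0-p1), made without regard to strand on RefSeq Curated gene models. Counts were used as deposited, with 0 further columns per sample in the table. The libraries carried no molecular identifiers. With the mouse in the design, the SE rests on how far the difference between treatments varied from mouse to mouse.

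Genes were filtered with filterByExpr (minimum count 10, minimum total 15), which kept 13941 and set aside 10529, scaled by TMM and tested with edgeR's quasi-likelihood test on a design of mouse and treatment, with Benjamini-Hochberg adjustment (FDR 0.05). SE is the absolute log2 fold change over the square root of F. Ratios within a mouse used normalized counts plus 2. Lengths are the union of exons of GENCODE M21 transcripts linked both to the Entrez identifier and to a curated RefSeq transcript. Where a gene had no such transcript, all transcripts linked to its Entrez identifier were used. Alternatives replaced the test (limma-voom or DESeq2), the scaling (total counts or size factors of DESeq2), the filter (none, or 10 or more counts in all libraries) or the design (no replicate block), or left out a mouse. The procedure was tested on simulated counts.

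The mouse pairs the gonads, as the labels state. Deviations from the treatment mean correlated at -0.04 to 0.155 within a mouse (mean 0.06) and at -0.015 on average between mice. Comparing libraries within a treatment gave a chi-square of 6.42 to 27.8 for each degree of freedom over 20 pairs, and thus no duplicates.

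Named genes are the 10 members, every other BCL2 family gene tested, the 4 genes with the smallest p of each other pathway list, and of each marker list the most abundant gene (by the mean of all 10 libraries) and the 2 with the smallest p. Some genes under this rule are not reported here. Pim1, Ywhab, Trp53, Tnfsf10, Amh, Foxl2, Pou5f1, Ly6g, Elane, Gpc3, Cyp11a1, Kdr and Itgam were named after their values were seen. Mir3473f, Ggnbp1, Cox4i2 and Gpr137 were named as entries that overlap a member. Members and lists were chosen with earlier results of these data known. Work was done in R 4.3.3 with DESeq2 1.42.0, edgeR 4.0.16 and limma 3.58.1 and in Python 3.11.15 with numpy 2.4.6, pandas 2.3.3, matplotlib 3.10.9 and Biopython 1.88.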

Additional observations from a re-analysis of the deposited data

Results flagged for a closer look

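The within-mouse log2 ratio of Mcl1 in mouse M2 was -0.56, far from the other 4 mice, the nearest of which was at -0.08. The gap took 0.925 of the whole range of the 5 ratios. It was the 1 result set apart in this way among 30 groups of 5 values examined (vehicle, GPI and ratio for each of the 10 members), and chance sets apart about 1 in 20 groups.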

How the results depend on the processing

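Hrk, Bcl2 and Bak1 kept their direction and their call under all 12 alternatives, with log2 differences of 2.19 to 2.36, -0.64 to -0.49 and -0.68 to -0.49. Without the replicate block (no pairing by mouse), 3108 genes were called against 3198, Bcl2 was at -0.56, Bak1 at -0.58 and Hrk at 2.29, and Bnip3 was the single call lost among the members and the other BCL2 family genes (-0.53). The count of members called was 3 under 11 alternatives and 4 without mouse M2, where Bcl2l11 was called. Calls among the other BCL2 family genes went from 2 to 1 with no replicate block and with DESeq2, and to between 1 and 2 with a mouse left out. Genes called higher over the whole table numbered 1544, and 969 to 1430 with a mouse left out, where fewer samples were fitted.

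Signs turned for 5 genes that were not called. Bcl2l1 (0.04) was at -0.02 with total counts and at -0.04 to 0.08 with a mouse left out. With a mouse left out, Bmf ranged from -0.17 to 0.02, Bax from -0.15 to 0.05, Bcl2l2 from -0.03 to 0.15 and Pmaip1 from -0.03 to 0.28. The cause was not tested. Scaling moved the median of all genes by less than 0.1, yet scaling by total counts gave 1238 genes higher and 1972 lower against 1544 and 1654. Bid, Bad and Bik had few counts and large SE, and 6 other family genes, set aside by the filter on low counts, were not called without it.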
